A study of Mus musculus with 17 samples.

Results

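The genotype effect averaged over both diets is the contrast that weighs each diet equally: the mean of the difference between knockout and wild-type on chow and the same difference on a high-fat diet (HFD). All 17 of the 17 libraries of the series enter it, 4 from chow wild-type, 3 from chow knockout, 5 from HFD wild-type and 5 from HFD knockout brown adipose tissue. The mice were C57BL/6J, an inbred laboratory strain, and the knockout is a conditional one that lacks ACBP in brown adipocytes (Acbp BAd-KO). They were housed at 22 °C and ate a standard chow or, for 12 weeks, a diet with 45% of its calories from fat. The sources used here give neither the promoter that drove the deletion, the age of the mice nor the time of collection, and they do not say that each library is 1 animal. The p-values therefore measure the spread between these libraries, which may be technical. A wild-type mouse is not stated to carry the recombinase, so an effect of the driver and one of the deletion cannot be told apart.

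Brown adipose tissue burns lipid to make heat through the uncoupling protein UCP1, under the control of noradrenaline, β-adrenergic receptors and cyclic AMP (cAMP). Acyl-CoA-binding protein, encoded by Acbp (annotated as Dbi), is a small cytosolic carrier that holds long-chain acyl-CoA esters and brings them to the enzymes that build, store or oxidise lipid. The averaged contrast asks which transcripts follow the genotype whichever diet the mice ate.

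Library totals ran from 39585167 to 104874625 counts, so for all but weak genes the spread between libraries, not counting, sets the error. Averaged over both diets, no genotype difference in 4 library measures passed the test (exact permutation within diets, 2-sided, p from 0.301 to 0.886, adjusted p from 0.695 to 0.886 over 4 measures). These were the total, the scaling factor, the share of counts in the top 50 genes and the number of genes detected. Group means of all 4 moved in opposite directions on the 2 diets, so the average can hide a difference within a diet. From wild-type to knockout the mean top 50 share went from 59.4% to 57.74% on chow and from 46.45% to 50.47% on HFD. The mean scaling factor went from 0.8427 to 0.8814 on chow and from 1.173 to 1.059 on HFD. Every chow knockout total lay above every chow wild-type total. The diets were not tested apart. The brown fat marker Ucp1 stood at 1695 to 4055 CPM (counts scaled to a common library size) in the 17 libraries, and the epidermal markers Krt5 and Krt14 were at 0 in all of them. Skeletal muscle transcripts were uneven: the sum of 26 muscle genes was 548 to 3368 CPM in chow wild-type, 35.9 to 1942 in chow knockout, 38.9 to 8764 in HFD wild-type and 50.8 to 14590 in HFD knockout. HFD wild-type 1 and HFD knockout 2, 4 and 5 held the most on HFD, so that the HFD medians were 56.4 CPM in wild-type and 3412 CPM in the knockout. Of 33 hepatocyte genes, 13 to 19 were at 0 in a chow wild-type library and none in a chow knockout library. Albumin (Alb) was 0 to 0.816 CPM in chow wild-type, 4.08 to 38.1 in chow knockout, 0.465 to 106 in HFD wild-type and 2.2 to 117 in HFD knockout. The library numbers in the labels fall into 4 runs, split at gaps of 10 or more. Chow wild-type 1 and 2 form 1 run, and HFD knockout 2 to 5 form another with no wild-type library in it, so for these libraries the genotype and the run cannot be told apart.

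Of 17717 genes tested, 506 (2.86%) passed an adjusted p of 0.05 (edgeR quasi-likelihood F test, Benjamini-Hochberg over all genes tested). In the knockout 233 rose (1.32% of all genes tested) and 273 fell (1.54%), and 480 of the 506 code for protein. Most changes were small, with a median of 1.32-fold. Of the 506, 360 changed by under 1.5-fold, while 15 rose and 33 fell by 2-fold or more. At an unadjusted p under 0.05 there were 3296 genes.

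The comparisons on chow and on HFD share no library, although 1 fit estimates the spread for both. The 506 genes were chosen on the mean of both changes, which favours genes with the same sign on both diets, so their counts by diet are a description. Of the 506, 493 had the same sign on both diets, and 299 of them (119 up and 180 down) also had an unadjusted p under 0.05 on each diet, as did 440 of all 17717 genes (2.48%). For 158 of the 506 that p was met on chow and not on HFD, and for 49 on HFD and not on chow. In 97 of the 506 (47 up and 50 down), each knockout library lay on the same side of every wild-type library of its diet on both diets, a pattern found in 105 of all 17717 genes (0.593%). Taken by diet, 187 genes were called on chow (1.06%) and 95 on HFD (0.536%). These calls rest on the same libraries as the averaged ones and are not independent of them. Of the 506, 140 were called on chow, 68 on HFD, 9 on both and 307 on neither. The change was larger on chow for 358 of the 506 genes and larger on HFD for 148, with median absolute log2 changes of 0.476 and 0.298.

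Genes chosen on 1 diet were also read on the other. Of the 187 genes called on chow, 132 moved the same way on HFD, and 56 of these passed an unadjusted p of 0.05 there. Another 5 passed it in the opposite direction. Of all genes tested 12.7% passed it on HFD, counting both directions. Of the 95 genes called on HFD, 75 moved the same way on chow and 42 of these passed there, while 2 passed in the opposite direction. Of all genes tested 15.2% passed on chow, counting both directions. Across all 17717 genes 56.1% moved the same way on both diets, and the log2 changes on the 2 diets had a Pearson correlation of 0.19 and a Spearman correlation of 0.14, given as a description since genes are not independent.

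**Figure D1:**
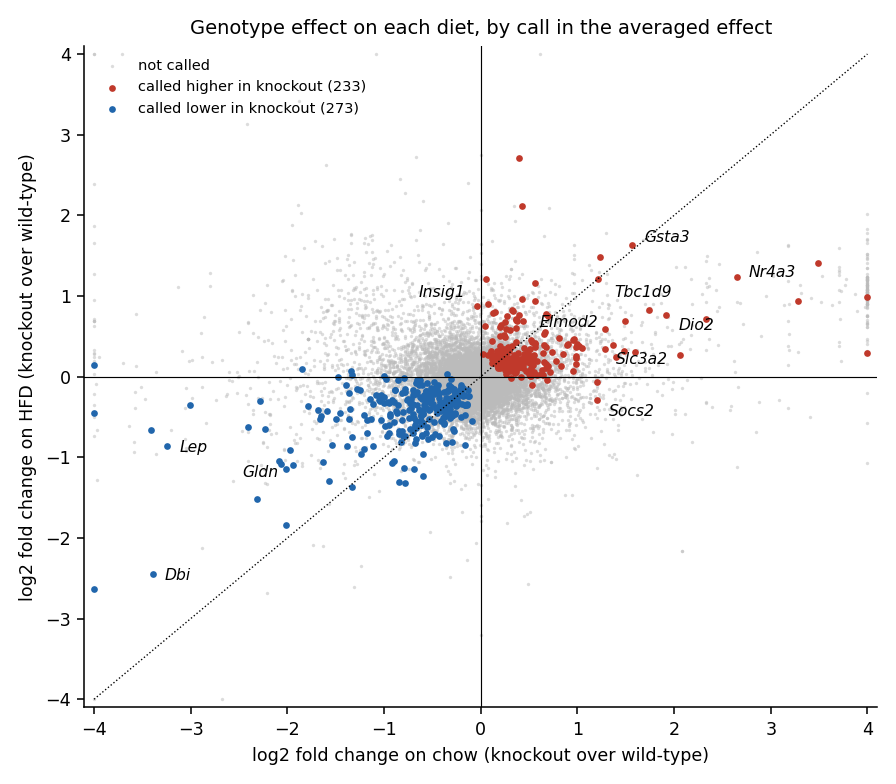
Log2 fold change of knockout over wild-type on chow (x axis) and on HFD (y axis) for the 17717 genes tested, with genes called in the averaged effect in red (233 higher) and blue (273 lower), the others in grey, and the dotted line marking equal change. Values beyond 4 are drawn at the edge; nearly all called genes lie at the lower left or the upper right of the plot, and Dbi lies above the line at the lower left.

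The alternative fits reuse libraries on which the 506 genes were chosen, so a kept direction is a description and no independent support. All 506 genes kept their direction in each of 31 alternative fits, save that a filter at 1 CPM tested only 469 of them, while the number called moved widely. With the run as a term of the model few genes were called. That fit leaves only HFD knockout 1 to set the HFD difference, and chow wild-type 3 and 4 for the chow one. Without the 4 HFD libraries richest in muscle RNA 23 genes were called, with HFD knockout 1 and 3 left. The part that the smaller number of libraries has in these counts was not tested. Counts over all fits share that limit. Fits with muscle and liver terms differed. With the sums of the muscle and of the hepatocyte list 595 genes were called, 455 of them among the 506, and with the muscle sum and the albumin level, an alternative added after seeing the data, 10. In chow wild-type the hepatocyte genes Trf, Cyp2e1 and Hp made up 246 to 367 CPM and the 30 others 4.05 to 4.54 CPM, so the hepatocyte sum and albumin are not the same measure. Scaling by library totals gave 272 calls, of which 22.1% were higher in the knockout, against 46.1% with the scaling used here. A set of 6 genes was called under all 31 settings: Dbi, Tbc1d9, Elmod2, Slc3a2, Sugct and Impact. Of these, Impact lay outside the rule for naming genes and was taken after its values were seen.

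Dbi, the targeted gene, stood at 1104, 1032, 1003 and 949 CPM in chow wild-type and at 88.3, 100 and 103 CPM in chow knockout. On HFD it stood at 701, 690, 658, 795 and 662 CPM in wild-type and at 126, 121, 111, 165 and 118 CPM in the knockout. Every knockout library lay far below every wild-type library on both diets. The averaged log2 fold change was -2.92 ± 0.08 (SE, adjusted p = 2.12e-12 by edgeR), a 7.58-fold fall, and it stayed between -2.99 and -2.83 under all settings. The other acyl-CoA-binding domain genes tested, Acbd3, Acbd4, Acbd5 and Acbd6, had averaged changes of 0.08, 0.02, 0.05 and 0.01 and were not called.

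Tbc1d9, a member of the TBC-domain family of Rab GTPase regulators, stood at 3.27, 3.45, 3.7 and 2.51 CPM in chow wild-type and 10.4, 12.2 and 9.91 CPM in chow knockout. On HFD the values were 6.04, 7, 6.15, 7.05 and 8.1 CPM in wild-type and 11.2, 11.4, 12.6, 11.5 and 13.9 CPM in the knockout. No knockout library overlapped a wild-type library of its diet, and the rise was 1.28 ± 0.09 on the log2 scale (SE, adjusted p = 5.57e-07 by edgeR). Elmod2, which encodes an ELMO-domain protein that activates the GTPase of ARL-family G proteins, stood at 26.9, 30.9, 29.1 and 42.9 CPM in chow wild-type and 81.4, 88.5 and 104 CPM in chow knockout. On HFD it stood at 24.8, 26.2, 28.1, 24.1 and 23.9 CPM in wild-type and 44.4, 41, 37.4, 44.3 and 37.4 CPM in the knockout. The groups were again apart on both diets, with a rise of 1.09 ± 0.09 (adjusted p = 3.74e-06 by edgeR). Tbc1d9 and Elmod2 are the protein-coding genes immediately on either side of Ucp1 on chromosome 8 in the RefSeq gene order. Of the 20 nearest protein-coding neighbours of Ucp1, 10 on each side, 16 were tested and these 2 were called, while Ucp1 itself was not. Of all genes tested 2.86% were called. An effect of the driver and one of the deletion cannot be told apart here either, and why these 2 genes rose was not tested.

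Slc3a2 encodes the heavy chain that brings several amino acid exchangers to the cell surface. It stood at 22.8, 24.2, 29.7 and 26.9 CPM in chow wild-type and 63.8, 61.6 and 63.8 CPM in chow knockout, and at 27.5, 32.5, 32.8, 32.6 and 39 CPM in wild-type and 35.9, 36.7, 44, 42.9 and 49.6 CPM in knockout libraries on HFD. The groups were far apart on chow, whereas on HFD the highest wild-type library (5) lay above the lowest knockout libraries (1 and 2). The averaged rise was 0.81 ± 0.08 (adjusted p = 6.22e-05 by edgeR). Of 25 amino acid transporter genes tested, Slc3a2 was the only one called in the averaged effect, where 2.86% of all genes tested were called.

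Sugct, the mitochondrial enzyme that moves coenzyme A from succinyl-CoA to glutarate, stood at 11.8, 10.5, 10.6 and 10.7 CPM in chow wild-type and 12.5, 14.1 and 15.4 CPM in chow knockout. On HFD it stood at 7.66, 7.37, 6.8, 7.5 and 6.74 CPM in wild-type and 11.9, 12.8, 12.1, 11.2 and 10.3 CPM in the knockout. The groups did not overlap on either diet, and the rise was 0.53 ± 0.06 (adjusted p = 0.000191 by edgeR). Impact, an inhibitor of the amino acid sensing kinase GCN2, stood at 12.2, 11, 14 and 13.4 CPM in chow wild-type and 22.8, 24.6 and 22.9 CPM in chow knockout, and at 14.3, 15.4, 18.6, 15.1 and 16.7 CPM in wild-type and 23.2, 18.5, 19.7, 20.5 and 23 CPM in knockout libraries on HFD. HFD knockout 2 lay just below HFD wild-type 3, the only overlap. The averaged rise was 0.64 ± 0.07 (adjusted p = 0.000149 by edgeR).

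**Figure D2:**
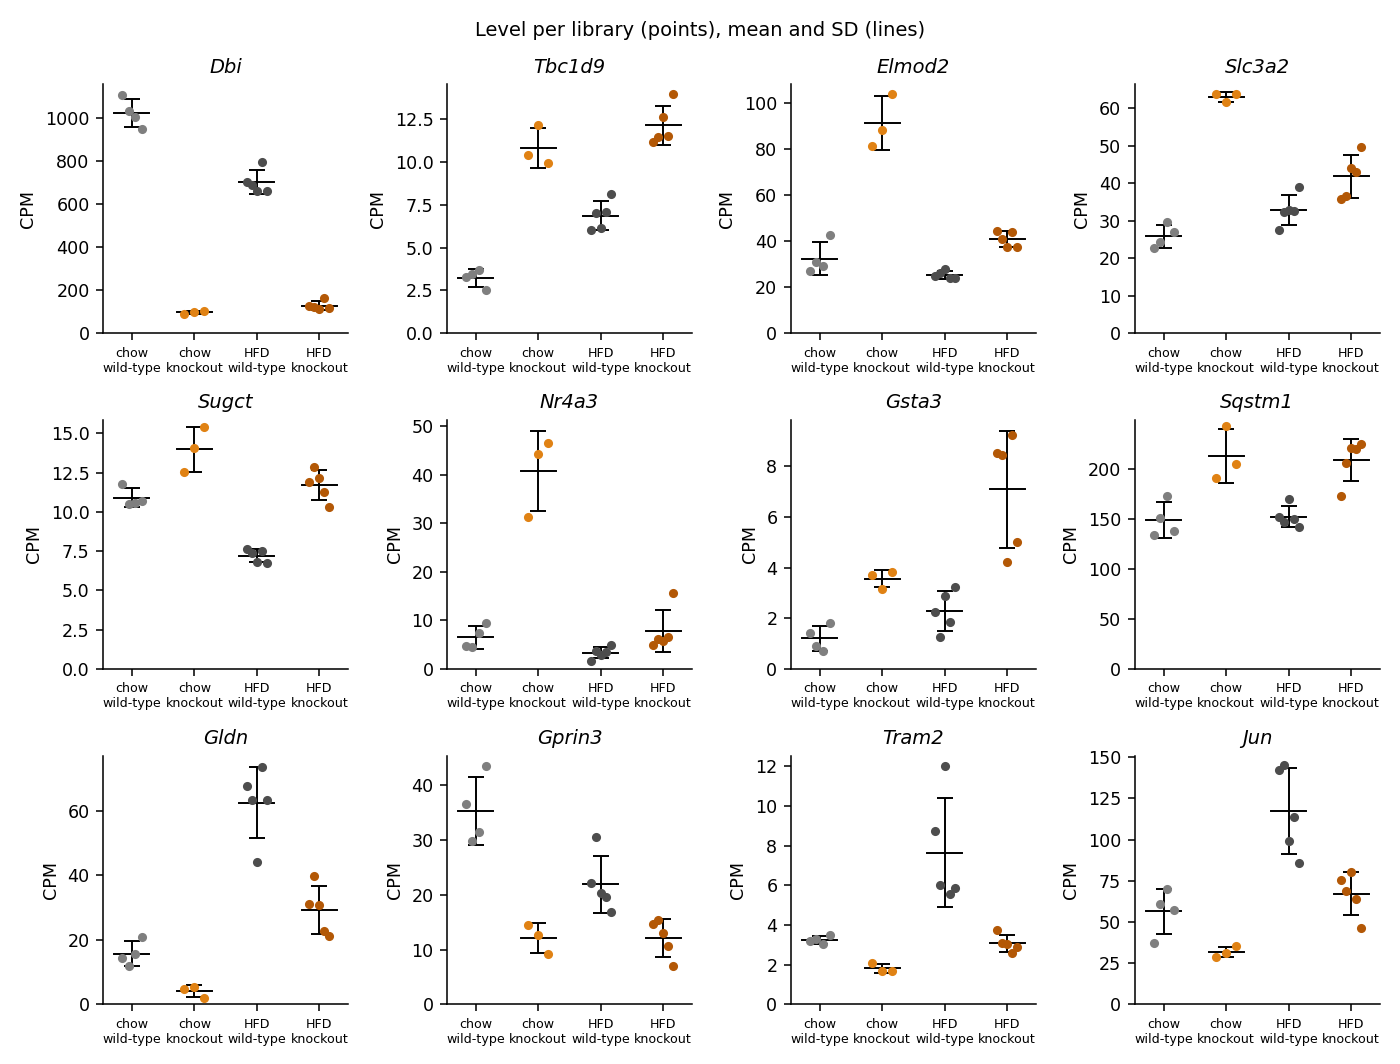
Level in CPM (y axis, from 0) of 12 genes in each library of the 4 groups (x axis), with the group mean and SD as black lines. Dbi, Gldn, Gprin3, Tram2 and Jun are lower and Tbc1d9, Elmod2, Sugct, Nr4a3, Gsta3 and Sqstm1 higher in all knockout libraries, set against each wild-type library of the same diet; Slc3a2 overlaps on HFD.

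Among the genes whose groups were apart on both diets, Nr4a3 and Gsta3 had the largest averaged rises. Nr4a3, an orphan nuclear receptor gene induced by cAMP, stood at 4.65, 4.55, 7.29 and 9.46 CPM in chow wild-type and 31.3, 44.2 and 46.5 CPM in chow knockout. On HFD it stood at 1.68, 3.73, 2.83, 3.51 and 4.81 CPM in wild-type and 4.98, 6.07, 5.77, 6.47 and 15.5 CPM in the knockout. Knockout 5 was by far the highest HFD library, and the lowest knockout library (1) was just above the highest wild-type library (5). The averaged rise was 1.94 ± 0.26 (adjusted p = 0.00155 by edgeR). The other genes of this set with the largest rises were Sctr, the secretin receptor, at 0.59 ± 0.10; Stip1, a co-chaperone, at 0.57 ± 0.09; Dnajb9, a chaperone of the endoplasmic reticulum, at 0.52 ± 0.10; Sqstm1, an autophagy receptor, at 0.49 ± 0.07; and Elovl5, an elongase of polyunsaturated fatty acids, at 0.46 ± 0.09. Their adjusted p values by edgeR ran from 0.00311 for Sqstm1 to 0.0185 for Elovl5. Without chow knockout 4 the adjusted p of Dnajb9 was 0.0535, and without chow knockout 3 that of Elovl5 was 0.0596. Sctr lies near Dbi on chromosome 1, with 1 protein-coding gene between them in the RefSeq order. It was the only one called of the 16 tested among the 20 nearest neighbours of Dbi, where 2.86% of all genes tested were called.

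The largest falls after Dbi in genes with groups apart on both diets were those of Gldn, Gprin3, Ptger4 and Tram2. Gldn encodes gliomedin, which clusters sodium channels at nodes of Ranvier in peripheral nerve, and stood at 14.3, 12, 15.6 and 20.9 CPM in chow wild-type and 4.72, 5.51 and 2.05 CPM in chow knockout. On HFD it stood at 67.7, 63.3, 44.2, 73.5 and 63.3 CPM in wild-type and 31.1, 39.7, 30.9, 22.8 and 21.1 CPM in the knockout. Each wild-type library was higher than every knockout library of its diet, and the averaged change was -1.52 ± 0.19 (adjusted p = 0.0011 by edgeR). Gprin3, of a family of G-protein-regulated inducers of neurite growth, stood at 36.5, 29.9, 31.4 and 43.6 CPM in chow wild-type and 14.5, 12.7 and 9.19 CPM in chow knockout, and at 22.1, 30.5, 20.4, 19.7 and 16.8 CPM in wild-type and 14.7, 15.3, 13.1, 10.6 and 6.98 CPM in knockout libraries on HFD. Its averaged change was -1.20 ± 0.16 (adjusted p = 0.00232), with knockout 5 the lowest HFD library. Ptger4, a prostaglandin E receptor gene, changed by -1.10 ± 0.23, and Tram2, which takes part in collagen synthesis at the endoplasmic reticulum, by -1.08 ± 0.15. E2f2, a cell-cycle transcription factor gene, changed by -0.86 ± 0.18, Zfp248, a zinc finger gene, by -0.84 ± 0.15, Wscd1 by -0.83 ± 0.16 and Jun by -0.82 ± 0.14. The adjusted p values of these 6 genes by edgeR lay between 0.00237 and 0.0191. Without chow knockout 3, or without chow knockout 4, those of Ptger4, E2f2 and Wscd1 rose to between 0.0505 and 0.0583.

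All 35 proteasome genes had higher averaged levels in the knockout, and 12 were called, against 1.32% of all genes tested called in that direction. The proteasome degrades proteins marked with ubiquitin through a barrel-shaped core (Psma and Psmb genes) and a cap that recognises and unfolds them (Psmc and Psmd genes). The called members were the core genes Psma3, Psma4, Psma5 and Psma7, the cap ATPase genes Psmc1, Psmc2 and Psmc5, and the other cap genes Psmd1, Psmd4, Psmd7, Psmd11 and Psmd14. Their rises were small, from 0.17 to 0.25 on the log2 scale, and 32 of the 35 genes were higher on each diet. The median change over the list was 0.164 averaged, 0.113 on chow and 0.212 on HFD, where that of all genes tested was -0.00489 averaged. On chow alone no member was called in either direction, and on HFD 3 were called higher. In 4 of the genes, Psma5, Psmc5, Psmd1 and Psmd14, the groups were apart on both diets, against 0.282% of all genes tested with the knockout higher.

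Summed over the list, proteasome transcripts came to 1966, 2096, 2170 and 2043 CPM in chow wild-type and 2189, 2267 and 2224 CPM in chow knockout. On HFD they came to 1669, 1654, 1537, 1770 and 1654 CPM in wild-type and 1766, 1956, 1836, 1941 and 1978 CPM in the knockout. The chow groups were apart, and on HFD knockout 1 was just under wild-type 4. Psmc2, as an example, stood at 33.1, 37.3, 36.6 and 33.4 CPM in chow wild-type and 37.1, 45.9 and 41.6 CPM in chow knockout, and at 33.9, 32.1, 31.6, 34 and 33.1 CPM in wild-type and 37.5, 39.4, 39, 38.1 and 41.8 CPM in knockout libraries on HFD. It rose by 0.25 ± 0.05 (adjusted p = 0.0127 by edgeR), with chow knockout 2 inside the wild-type range. Without single libraries the number of called proteasome genes was 3 to 12, lowest without chow knockout 3, where Psmc2, Psmc5 and Psmd7 were left. It was 1 under scaling by library totals and 0 with the run in the model, with muscle and albumin in the model or without the 4 muscle-rich HFD libraries, although 32 to 34 of the 35 genes stayed higher in these fits, and 12 with the muscle and hepatocyte sums in the model.

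The next 5 genes, all with groups apart on both diets, were picked after their values were seen and stand for no list. Adrm1, a ubiquitin receptor of the proteasome, stood at 68.5, 72.9, 81.3 and 72 CPM in chow wild-type and 92, 98.1 and 87.4 CPM in chow knockout, and at 61.3, 60.5, 49.3, 60.8 and 58.2 CPM in wild-type and 66.7, 75, 78.6, 80.1 and 76.9 CPM in knockout libraries on HFD. It rose by 0.35 ± 0.05 (adjusted p = 0.00516 by edgeR). The shuttle factor gene Ubqln1 rose by 0.22 ± 0.04, the genes Ufd1 and Ubxn4 of proteins that work with the VCP unfoldase by 0.19 ± 0.04 and 0.30 ± 0.05, and the ubiquitin ligase scaffold gene Cul1 by 0.20 ± 0.04. The calls of Ubqln1, Ufd1 and Cul1 were lost without chow knockout 3 (0.0573, 0.0862 and 0.0723). Those of Ufd1 and Cul1 were also lost without chow knockout 4 (0.0608 and 0.0747), and that of Ufd1 without HFD knockout 4 (0.0512).

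Of 22 heat shock genes, which encode chaperones and their partners, 21 had a higher averaged level in the knockout and 4 were called, against 1.32% of all genes tested called higher: Stip1, Hsp90ab1, Ahsa1 and Bag3. Stip1 stood at 51.7, 51.1, 51.1 and 59 CPM in chow wild-type and 60, 65.2 and 74.2 CPM in chow knockout, and at 42.9, 47.6, 49, 56.2 and 61.4 CPM in wild-type and 75.6, 71.8, 102, 94.7 and 112 CPM in knockout libraries on HFD. Its groups were apart on both diets, narrowly on chow, and the averaged rise was 0.57 ± 0.09 (adjusted p = 0.00832 by edgeR). Hsp90ab1, a constitutive chaperone, rose by 0.43 ± 0.08, Ahsa1, an activator of its ATPase, by 0.44 ± 0.09, and the co-chaperone Bag3 by 0.58 ± 0.14 (adjusted p = 0.0124, 0.0185 and 0.0356 by edgeR). The median of the list was 0.34 averaged, 0.08 on chow and 0.60 on HFD, where 6 members were called higher, against 0.31% of all genes tested. Summed levels on chow, 2600, 3000, 2763 and 3233 CPM in wild-type and 2897, 2889 and 3094 CPM in the knockout, overlapped. On HFD they were 2348, 2978, 2757, 3556 and 3637 CPM in wild-type and 3912, 3870, 4799, 4504 and 5456 CPM in the knockout, with all 5 knockout libraries above the wild-type ones. The stress-induced Hspa1b ranged from 8.14 to 72 CPM among HFD wild-type libraries, and its change of 0.90 ± 0.41 was not called (adjusted p = 0.253 by edgeR). Without single libraries 2 to 8 members were called, fewest without chow knockout 4, where the adjusted p of Ahsa1 was 0.0553, and the call of Bag3 was lost without any 1 of 12 libraries (up to 0.0873).

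**Figure D3:**
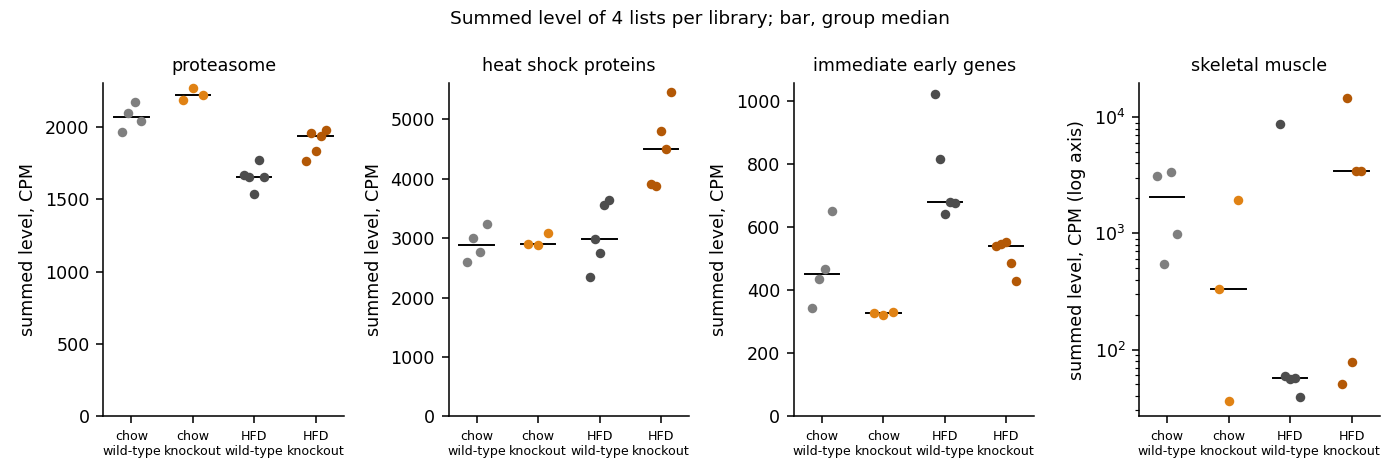
Summed CPM (y axis, log axis for muscle) of the proteasome, heat shock, immediate early and skeletal muscle lists in each library (points) of the 4 groups (x axis), with bars at the group medians. The proteasome sum is higher in the knockout on each diet apart from 1 pair of HFD libraries, the heat shock sum is higher on HFD, the immediate early sum is lower, and the muscle sum spreads from 35.9 to 14590 CPM.

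Of 30 genes of glutathione metabolism and antioxidant defence, 3 were called and all 3 rose, against 1.32% of all genes tested called higher: Gsta3, a glutathione transferase, Gclm, the modifier subunit of the enzyme that starts glutathione synthesis, and Sod1, the cytosolic superoxide dismutase. Gsta3 stood at 1.41, 0.904, 0.696 and 1.81 CPM in chow wild-type and 3.71, 3.17 and 3.82 CPM in chow knockout, and at 2.23, 1.26, 2.89, 1.85 and 3.23 CPM in wild-type and 8.54, 8.46, 4.2, 9.24 and 5.02 CPM in knockout libraries on HFD. Knockout libraries were above wild-type ones on both diets, and the averaged rise of 1.60 ± 0.23 (adjusted p = 0.0028 by edgeR) was made up of 1.57 on chow and 1.63 on HFD. Gclm rose by 0.28 ± 0.06 and Sod1 by 0.20 ± 0.05 (adjusted p = 0.0256 and 0.0421 by edgeR). The adjusted p of Gclm was 0.077 without chow knockout 3 and 0.073 without chow knockout 4, and that of Sod1 was above 0.05 without any 1 of 13 libraries, reaching 0.136. Of the 30 genes 19 had higher and 11 lower averaged levels, and the median of the list was 0.03. Mafg, a small MAF protein gene picked after its values were seen, rose by 0.31 ± 0.05 (adjusted p = 0.00443 by edgeR) with its groups apart on both diets.

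The promoters of Gsta3, Gclm and Sod1 were chosen after their values were seen. They are shown because these 3 genes were the called members of the antioxidant list. Each holds the core of the antioxidant response element, TGACNNNGC on either strand, which small MAF proteins and NRF2 are known to bind. Each sequence is that of RefSeq for build GRCm38.p6, which is not the build of the counts, runs from 250 bases before to 50 after the start of the gene on the gene's own strand, and has the match in capitals.
Gsta3, chr1:21240335-21240634, plus strand: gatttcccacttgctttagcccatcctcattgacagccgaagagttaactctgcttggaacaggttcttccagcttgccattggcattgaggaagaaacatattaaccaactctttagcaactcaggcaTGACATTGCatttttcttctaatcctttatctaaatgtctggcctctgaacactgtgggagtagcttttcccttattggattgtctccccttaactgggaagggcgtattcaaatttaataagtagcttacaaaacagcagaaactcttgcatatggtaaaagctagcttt
Gclm, chr3:122245307-122245606, plus strand: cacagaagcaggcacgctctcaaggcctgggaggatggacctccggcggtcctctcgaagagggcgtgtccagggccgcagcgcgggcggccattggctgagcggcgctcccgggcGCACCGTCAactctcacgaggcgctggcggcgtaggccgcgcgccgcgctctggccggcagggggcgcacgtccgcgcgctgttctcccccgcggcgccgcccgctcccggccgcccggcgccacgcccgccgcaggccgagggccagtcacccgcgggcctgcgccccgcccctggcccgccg
Sod1, chr16:90220512-90220811, plus strand: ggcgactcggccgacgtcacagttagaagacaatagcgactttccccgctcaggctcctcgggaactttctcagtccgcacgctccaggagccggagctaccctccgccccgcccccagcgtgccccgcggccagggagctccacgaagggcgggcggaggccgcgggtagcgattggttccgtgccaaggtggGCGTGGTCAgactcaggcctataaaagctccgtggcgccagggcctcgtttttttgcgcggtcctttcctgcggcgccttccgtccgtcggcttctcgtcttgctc
The matches begin 121, 134 and 56 bases before the start of Gsta3, Gclm and Sod1. The same letters were found in 1770 of the 11987 genes tested whose promoter was in the RefSeq table (14.8%), in 7 of 25 promoters of the antioxidant list, in 5 of 29 of the proteasome list and in none of the 11 called proteasome genes with a promoter. The other antioxidant genes that held them, Prdx1, Mgst1, Nfe2l2 and Srxn1, were not called. Among called genes the letters were in 28 of 185 that rose (15.1%) and 26 of 194 that fell (13.4%). A match is a description of letters and was not tested for binding.

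The listed immediate early genes, which cells switch on within minutes of a stimulus or of handling, moved mostly one way: 21 of 26 had a lower averaged level and 6 were called, none of them higher, against 1.54% of all genes tested called lower. The list does not hold Nr4a3, which was placed in the cAMP list and rose by 1.94. These counts therefore depend on how the list was drawn. The called genes were the transcription factor genes Jun, Egr3 and Myc, the RNA-decay factor gene Zfp36, the phosphatase gene Dusp1 and the secreted matrix protein gene Ccn1. Jun stood at 37.5, 61, 69.9 and 57.3 CPM in chow wild-type and 28.9, 31.4 and 35.2 CPM in chow knockout, and at 142, 145, 99.4, 114 and 86 CPM in wild-type and 75.7, 68.9, 80.6, 63.9 and 46.5 CPM in knockout libraries on HFD. Its groups were apart on both diets, and it fell by 0.82 ± 0.14 on the log2 scale (adjusted p = 0.0115 by edgeR), with log2 changes of -0.83 on chow and -0.81 on HFD. Egr3 stood at 1.44, 1.48, 1.95 and 5.65 CPM in chow wild-type and 0.712, 0.602 and 0.628 CPM in chow knockout, and at 4.87, 6.26, 1.97, 1.1 and 0.898 CPM in wild-type and 1.24, 0.939, 0.744, 0.36 and 0.906 CPM in knockout libraries on HFD. Its HFD groups overlapped, and its change was -1.93 ± 0.44 (adjusted p = 0.0288 by edgeR; up to 0.0873 without chow knockout 2, 3 or 4 or HFD wild-type 1). Zfp36 changed by -0.48 ± 0.11 and Dusp1 by -0.96 ± 0.22 (adjusted p = 0.0252 and 0.0264 by edgeR). Those calls were lost without chow knockout 3 (0.0835 and 0.077) and without chow knockout 4 (0.0546 and 0.0571), and that of Dusp1 also without chow knockout 2 (0.064). Myc changed by -0.95 ± 0.24 (-1.45 on chow and -0.45 on HFD), a call lost without any 1 of 11 libraries, with adjusted p up to 0.127. Fos and Egr1, the usual markers of this class, had changes of -1.87 ± 0.67 and -1.92 ± 0.61 that were not called (adjusted p = 0.145 and 0.103 by edgeR). Fos ran from 0.903 to 21 CPM within HFD wild-type alone. The median over the list was -0.41 averaged, -0.51 on chow and -0.47 on HFD, and no member was called on either diet by itself. Summed levels were 343, 437, 468 and 651 CPM in chow wild-type and 328, 320 and 329 CPM in chow knockout. On HFD they were 1022, 815, 641, 680 and 677 CPM in wild-type and 539, 545, 554, 487 and 430 CPM in the knockout. In summed level every knockout library was below every wild-type library of its diet, and HFD wild-type 1, the library of that group richest in muscle transcripts, had the highest sum. The number called was 1 to 6 without single libraries, lowest without chow knockout 3, and 0 with the run in the model, with muscle and albumin in the model or without the muscle-rich HFD libraries, and 8 with the muscle and hepatocyte sums in the model.

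Genes of β-adrenergic and cAMP signalling moved both ways. Of 27 tested, 5 rose and 1 fell, against 1.32% and 1.54% of all genes tested: Nr4a3 and Crem, both induced by cAMP, the phosphodiesterase genes Pde4d and Pde3b and the CREB coactivator gene Crtc2 rose, and Adrb1, a β-adrenergic receptor gene, fell. Pde4d rose by 0.48 ± 0.09, Crem by 0.39 ± 0.08, Pde3b by 0.30 ± 0.07 and Crtc2 by 0.23 ± 0.06 (adjusted p = 0.0124, 0.0185, 0.0311 and 0.0421 by edgeR). The change of Pde4d was 0.83 on chow and 0.13 on HFD, and that of Crtc2 0.35 on chow and 0.11 on HFD. The call of Pde3b was lost without any 1 of 6 libraries (up to 0.0991) and that of Crtc2 without any 1 of 13 (up to 0.102). Adrb1 stood at 30.9, 33, 25.8 and 35.5 CPM in chow wild-type and 25.4, 16.1 and 17.1 CPM in chow knockout, and at 44.1, 48.6, 29, 33.3 and 31.5 CPM in wild-type and 27.7, 26.5, 24.1, 25.2 and 19.4 CPM in knockout libraries on HFD. It was lower in every knockout library of each diet and changed by -0.64 ± 0.12 (adjusted p = 0.0151 by edgeR; 0.0551 without chow knockout 3 and 0.0546 without chow knockout 4). Adrb3, the main β-adrenergic receptor gene of mouse brown fat, changed by -0.06 ± 0.12 and was not called. The median of the list was 0.14.

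Of 24 genes of the thermogenic programme, Dio2, Ppargc1a and Zfp516 rose, against 1.32% of all genes tested, none fell, and the median was 0.08. Dio2, which encodes the enzyme that makes active thyroid hormone inside brown adipocytes, stood at 48.7, 129, 142 and 55.9 CPM in chow wild-type and 325, 345 and 397 CPM in chow knockout, and at 48.3, 84.7, 68.1, 136 and 191 CPM in wild-type and 171, 163, 109, 188 and 265 CPM in knockout libraries on HFD. Chow groups were far apart and HFD groups overlapped, and the averaged rise was 1.34 ± 0.28 (adjusted p = 0.0204 by edgeR; 0.0536 without chow knockout 3 and 0.058 without chow knockout 4). Ppargc1a, a coactivator of mitochondrial biogenesis, stood at 54.4, 58.1, 73.5 and 48.7 CPM in chow wild-type and 221, 186 and 125 CPM in chow knockout, and at 42.5, 60.2, 49.9, 68.7 and 104 CPM in wild-type and 70.3, 55.9, 68.2, 84 and 124 CPM in knockout libraries on HFD. It too was apart on chow and overlapping on HFD, with an averaged rise of 0.95 ± 0.19 (adjusted p = 0.017 by edgeR; 0.0524 without chow knockout 3) made up of 1.59 on chow and 0.31 on HFD. Zfp516, a transcriptional activator of Ucp1, rose by 0.35 ± 0.08, and its adjusted p of 0.0354 was above 0.05 without any 1 of 10 libraries. Ucp1 itself changed by 0.29 ± 0.16, Elovl3, a cold-induced elongase, by 0.43 ± 0.21 and Cidea, a lipid droplet protein, by 0.05 ± 0.09, none of them called (adjusted p = 0.369, 0.276 and 0.824 by edgeR). Fgf21, the gene of a circulating metabolic hormone, was low, at 0.111 to 1.33 CPM, and its change of -0.51 ± 0.28 was not called (adjusted p = 0.355 by edgeR).

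The Dio2 promoter, also chosen after values were seen, is shown because the gene rose with the cAMP-induced genes above and holds 1 full cAMP response element, TGACGTCA, in capitals below. Its source, build and span are those given for the antioxidant genes.
Dio2, chr12:90738989-90739288, minus strand: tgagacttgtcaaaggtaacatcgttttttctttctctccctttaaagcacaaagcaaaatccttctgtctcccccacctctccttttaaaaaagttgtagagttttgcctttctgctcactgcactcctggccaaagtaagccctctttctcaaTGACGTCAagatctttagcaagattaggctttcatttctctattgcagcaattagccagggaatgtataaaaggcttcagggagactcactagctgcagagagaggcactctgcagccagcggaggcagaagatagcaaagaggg
The match begins 95 bases before the start of the gene. The motif reads the same on both strands and was found in 360 of the 11987 promoters of genes tested (3%), in 7 of 185 among genes that rose (3.78%) and in 2 of 194 among genes that fell (1.03%). The 2 that fell were Irf2bpl and the immediate early gene Dusp1, so genes with the motif moved both ways. None of the 20 promoters of the cAMP list held the motif. Binding was not tested.

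Lipid genes were called singly rather than as whole pathways. For the lists below, the shares over all genes tested were 1.32% called higher and 1.54% lower. In fatty acid and triglyceride synthesis Elovl5 and Scd1 rose of 30 tested, with a list median of 0.12. Scd1, the main desaturase that makes oleate, stood at 77130, 77590, 75920 and 102300 CPM in chow wild-type and 87640, 95000 and 80850 CPM in chow knockout, and at 45620, 36720, 37950, 33570 and 36220 CPM in wild-type and 79780, 77620, 79200, 63410 and 53530 CPM in knockout libraries on HFD. It overlapped on chow (0.08) and was apart on HFD (0.90), and the averaged rise of 0.49 ± 0.11 (adjusted p = 0.029 by edgeR) was not called without any 1 of 8 libraries, with adjusted p up to 0.0883. In cholesterol synthesis 3 of 25 tested genes rose, Insig1 and Sqle among them, with a list median of 0.07. Insig1, which holds back the transcription factor SREBP, stood at 593, 645, 579 and 658 CPM in chow wild-type and 556, 708 and 542 CPM in chow knockout, and at 227, 175, 196, 189 and 175 CPM in wild-type and 329, 341, 413, 345 and 329 CPM in knockout libraries on HFD. The chow groups overlapped and the HFD groups were apart, with an averaged rise of 0.42 ± 0.07 (adjusted p = 0.0117 by edgeR). Sqle, an enzyme of sterol synthesis, rose by 0.42 ± 0.10 (0.21 on chow and 0.64 on HFD), and this call was lost without any 1 of 11 libraries, with adjusted p up to 0.0805.

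Among genes that take up or bind fatty acids, Fabp5 rose and Fabp3 and Cd36 fell, 3 of 13 tested. Of all genes tested 1.32% were called higher and 1.54% lower, which serves for the next lists too. Fabp3, a cytosolic fatty acid-binding protein, stood at 224, 222, 199 and 269 CPM in chow wild-type and 122, 126 and 87.7 CPM in chow knockout, and at 523, 646, 363, 555 and 415 CPM in wild-type and 355, 401, 463, 454 and 457 CPM in knockout libraries on HFD. It was lower on chow with no overlap and overlapped on HFD, with an averaged change of -0.63 ± 0.12 (adjusted p = 0.0127 by edgeR) made up of -1.03 on chow and -0.23 on HFD. Fabp5, its relative, rose by 0.46 ± 0.10 (adjusted p = 0.0221; 0.0561 without chow knockout 2 and 0.0588 without chow knockout 4), made up of 0.25 on chow and 0.67 on HFD. Cd36, a fatty acid transporter, fell by 0.21 ± 0.05 on the log2 scale, a call lost without any 1 of 9 libraries, with adjusted p up to 0.0829. In acyl-CoA synthesis and hydrolysis the peroxisomal thioesterase gene Acot4 and the synthetase gene Acsl3 rose, 2 of 24 tested, by 0.71 ± 0.14 and 0.51 ± 0.12. Without chow knockout 3 the adjusted p of Acot4 was 0.0642, and that of Acsl3 was above 0.05 without any 1 of 12 libraries, reaching 0.105. The change of Acsl3 was 0.27 on chow and 0.75 on HFD. Of 16 lipolysis genes, Abhd5, the coactivator of adipose triglyceride lipase, rose by 0.36 ± 0.07 (adjusted p = 0.0185 by edgeR; 0.0592 without chow knockout 3 and 0.0571 without chow knockout 4). Its change was 0.64 on chow and 0.08 on HFD, where the unadjusted p was 0.398.

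In energy metabolism no gene was called of 36 of respiratory complex I, 42 of complexes II to V, 13 encoded by mitochondrial DNA, 23 of mitochondrial fatty acid oxidation or 20 of branched-chain amino acid breakdown. Of all genes tested 2.86% were called, so a list of this size may hold none and is not thereby shown to be unchanged. The averaged medians of these lists lay between -0.06 and 0.07. On chow and on HFD they were -0.10 and 0.22 for complex I, -0.08 and 0.20 for complexes II to V and -0.13 and 0.10 for mitochondrial DNA. Fatty acid oxidation stood at -0.14 and 0.04, and branched-chain breakdown at -0.06 and 0.06. The averages near 0 thus hold medians of opposite sign by diet. Of 35 genes of glycolysis, pyruvate oxidation and the TCA cycle only Idh2 was called, at -0.26 ± 0.06 (adjusted p = 0.0276 by edgeR; called no longer without any 1 of 5 libraries, up to 0.0865). Of 28 peroxisomal genes Ehhadh, a bifunctional enzyme of peroxisomal oxidation, rose by 0.93 ± 0.24, and its adjusted p of 0.0478 was above 0.05 without any 1 of 12 libraries, up to 0.126. The call of Ehhadh was also lost with the muscle and hepatocyte sums in the model, and with the muscle sum and albumin. Of 19 genes of glycerol, creatine and calcium cycling Pck1, which makes the backbone of glycerol from smaller precursors, rose by 0.51 ± 0.11 and Slc6a8, the creatine transporter, fell by 0.30 ± 0.08. Of 35 mitochondrial carriers Slc25a32, a carrier of folate, fell by 0.35 ± 0.09. These calls were lost without any 1 of 5, 14 and 13 libraries, with adjusted p up to 0.0913, 0.136 and 0.124. Pck1 changed by 0.95 on chow and 0.07 on HFD, where its unadjusted p was 0.636, Slc6a8 by -0.45 on chow and -0.16 on HFD, and Slc25a32 by -0.66 on chow and -0.04 on HFD, where its unadjusted p was 0.704. Ribosomal protein genes were not called either, 0 of 51 cytosolic and 0 of 50 mitochondrial, although 47 and 44 of them had higher averaged levels, with medians of 0.08 and 0.09.

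Clock genes were called in both directions. Of 24 tested, Noct and Nfil3 rose, against 1.32% of all genes tested, and Cry2, Rorb and Bhlhe41 fell, against 1.54%. Noct, a phosphatase of NADPH whose transcript cycles daily, stood at 45.4, 57.1, 63.2 and 53.8 CPM in chow wild-type and 133, 150 and 150 CPM in chow knockout, and at 49.1, 61, 51.3, 64.2 and 66.6 CPM in wild-type and 74.7, 62.2, 52.1, 70.8 and 86 CPM in knockout libraries on HFD. It was apart on chow and overlapped on HFD, and its averaged rise was 0.82 ± 0.10 (adjusted p = 0.000633 by edgeR). Cry2, a repressor of the clock, changed by -0.52 ± 0.09, Rorb, a nuclear receptor gene, by -0.92 ± 0.17, Bhlhe41, another repressor, by -0.64 ± 0.14 and Nfil3, a repressor of clock output genes, by 0.43 ± 0.11. The call of Bhlhe41 was lost without any 1 of 6 libraries (up to 0.0908) and that of Nfil3 without any 1 of 14 (up to 0.138). Cry2 changed by -0.88 on chow and -0.17 on HFD, and Bhlhe41 by -1.34 on chow and 0.07 on HFD. When each library was collected is not stated.

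Of 32 genes of Notch, Wnt, BMP and TGF-β signalling, 5 fell and none rose, against 1.54% of all genes tested called lower: Fzd4, a Wnt receptor gene, by 0.60 ± 0.11, Axin2, a Wnt target, by 0.79 ± 0.15, Wnt5a by 0.31 ± 0.06, Smad6, an inhibitor of BMP signalling, by 0.63 ± 0.14 and Bmp2 by 0.61 ± 0.15 on the log2 scale. Fzd4 stood at 249, 219, 182 and 186 CPM in chow wild-type and 146, 129 and 114 CPM in chow knockout, and at 291, 348, 337, 275 and 240 CPM in wild-type and 254, 235, 201, 197 and 154 CPM in knockout libraries on HFD. Chow groups were apart, while on HFD knockout 1 lay above the lowest wild-type library. Adjusted p values by edgeR were 0.0119 for Fzd4, 0.014 for Axin2, 0.0185 for Wnt5a, 0.0296 for Smad6 and 0.0356 for Bmp2, and without chow knockout 4 that of Wnt5a was 0.0559. The call of Smad6 was lost without any 1 of 5 libraries (up to 0.0952) and that of Bmp2 without any 1 of 10 (up to 0.0907). The median of the list was -0.12. In the Hippo pathway Sav1, an adaptor of its kinases, rose by 0.34 ± 0.05. Amotl2, a binding partner of YAP, and Ccn1, a target of YAP, fell by 0.76 ± 0.13 and 1.35 ± 0.34. These were 3 of 22 tested, against 2.86% of all genes tested. The call of Ccn1 was lost without any 1 of 10 libraries, with adjusted p up to 0.108.

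Lep, which encodes leptin and is much stronger in white than in brown fat, fell next most after Dbi among the genes described here. It stood at 70.4, 41.5, 19.1 and 49.3 CPM in chow wild-type and 8.35, 3.56 and 2.4 CPM in chow knockout, and at 308, 258, 460, 173 and 197 CPM in wild-type and 258, 197, 196, 93.1 and 25.6 CPM in knockout libraries on HFD. The chow groups were apart and the HFD groups overlapped, with knockout 5 the lowest. The averaged change was -2.05 ± 0.42 (adjusted p = 0.0186 by edgeR; 0.0678 without chow knockout 3 and 0.0661 without chow knockout 4). Its change was -3.24 on chow and -0.86 on HFD. Lep was the only one called of 11 white adipocyte genes tested, of which 8 had lower averaged levels, with a list median of -0.33. For this list and those below, the shares over all genes tested were 1.32% called higher and 1.54% lower. Summed over the 14 white adipocyte genes in the table, Lep among them, chow knockout libraries held 197 to 209 CPM and lay below the chow wild-type ones, at 234 to 325 CPM. On HFD the sum was 828 to 1700 CPM in wild-type and 410 to 1191 CPM in the knockout, which overlapped. Part of these differences is Lep itself. The part of these genes in the fall of Lep was not tested. Among 24 endocrine genes of brown fat, S100b, a growth factor for sympathetic nerve, changed by -0.43 ± 0.09 (adjusted p = 0.0252 by edgeR; 0.0743 without chow knockout 3 and 0.0807 without chow knockout 4), made up of -0.70 on chow and -0.16 on HFD. Nrg4, a secreted growth factor, rose by 0.27 ± 0.06 (0.47 on chow and 0.07 on HFD), with a call lost without any 1 of 5 libraries, up to an adjusted p of 0.0849. In the other regulator lists Cebpb and Foxo1 rose of 22 PPAR, RXR and C/EBP genes, by 0.48 ± 0.10 and 0.42 ± 0.10; the adjusted p of Cebpb was 0.0528 without chow knockout 2 and 0.0541 without chow knockout 3, and that of Foxo1 was above 0.05 without any 1 of 10 libraries, up to 0.0997. Foxo1 changed by 0.70 on chow and 0.13 on HFD.

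Most marker lists of other cell types held no called gene, where 2.86% of all genes tested were called. None was called of 20 macrophage genes, 28 of chemokines, cytokines and interferon targets, 19 of antigen presentation, 15 of lymphocytes, 14 of adipose stromal cells, 22 of the mitotic cell cycle or 8 of erythroid cells. Even so 18 of the macrophage and 20 of the cell cycle genes had lower averaged levels, with medians of -0.17 and -0.27, while 12 of the lymphocyte genes had higher ones, with a median of 0.51. In endothelium Emcn, a surface sialoprotein of capillaries and veins, was called of 20, and in collagens and matrix Col8a1 of 28, at -0.36 ± 0.07 and -0.63 ± 0.13 (adjusted p = 0.0127 and 0.017 by edgeR; that of Col8a1 was 0.0566 without chow knockout 3 and 0.0583 without chow knockout 4). Gldn and S100b were the called members of 12 nerve and Schwann cell genes tested. In tissue RNA, fewer cells of a type and less RNA per cell cannot be told apart. Of 26 skeletal muscle genes none was called, 13 were higher and 13 lower, and the list median was -1.30 on chow and 1.21 on HFD. Of 33 hepatocyte genes 32 were higher in the averaged effect, with a median of 3.27, and Serpina1e, a serum protease inhibitor gene, was called (adjusted p = 0.0252 by edgeR; 0.0526 without chow wild-type 1, 0.0785 without chow knockout 3 and 0.0546 without chow knockout 4). An unadjusted p under 0.05 was found for 21 of the 33. Without HFD wild-type 5, whose albumin was the highest of its group, 15 were called higher, and without each other library in turn 0 or 1. With DESeq2 16 were called higher, as with the muscle and hepatocyte sums in the model, where the median was 3.04, and 0 with the muscle sum and albumin, where it was 0.55. Serpina1e changed by 5.54 on chow and 0.99 on HFD. The share of muscle and hepatocyte RNA in the gene changes above was not tested beyond the fits that hold or drop it.

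**Figure D4:**
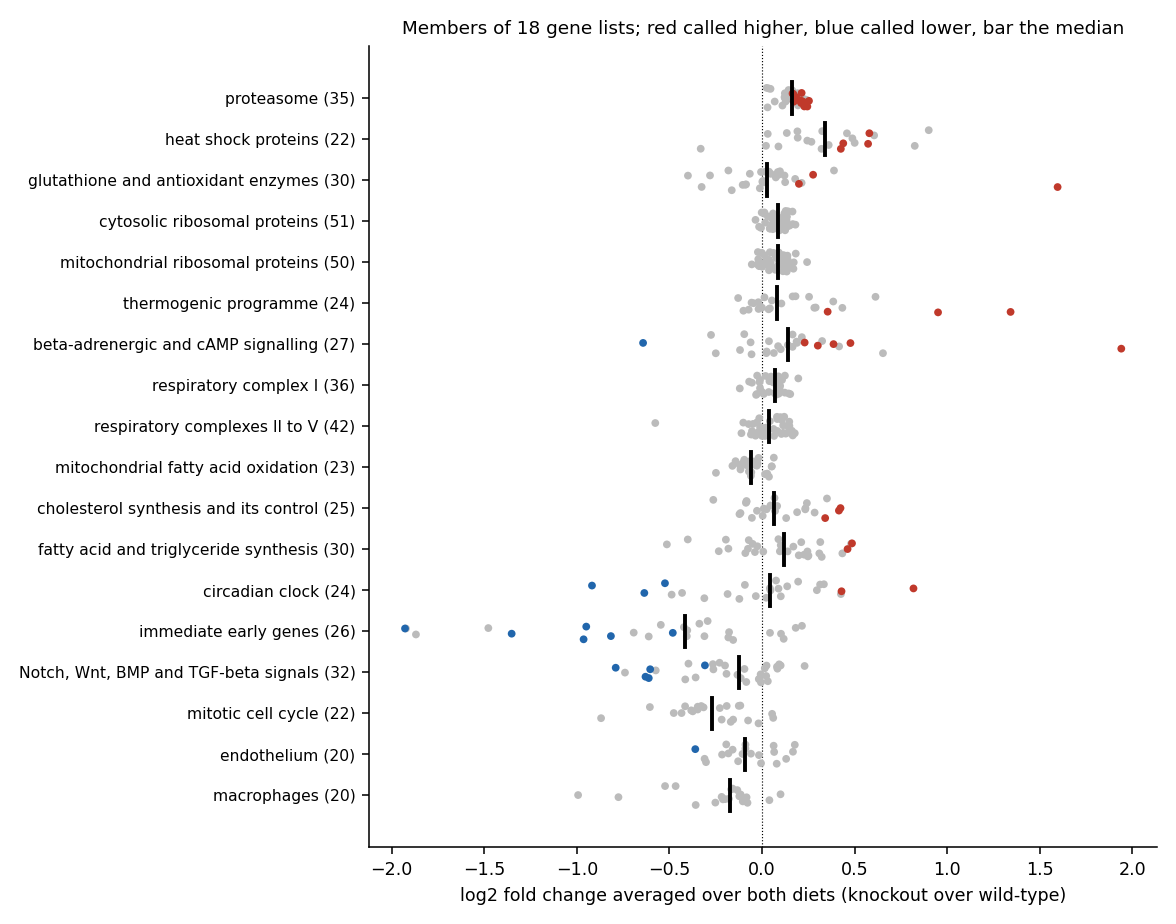
Log2 fold change averaged over both diets (x axis) of each gene (points) of 18 lists (y axis, with the number of genes tested), with called genes in red (higher) or blue (lower) and the list median as a bar. All 35 proteasome genes lie above 0, 21 of 26 immediate early genes lie below it, and the medians of the respiratory lists sit near 0 with no called gene.

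The averaged effect can hide a difference between the diets, and 7 of the 506 genes also had a called genotype by diet interaction, out of 16 called among all genes tested (0.0903%). At an unadjusted p under 0.05 it was 166 of the 506 (32.8%), against 10.4% of all genes tested. The 7 called genes were Dbi, Insig1, Slc3a2, Noct, Sav1, Socs2 and Cmtm6. Without single libraries the interaction was called for 0 to 33 genes, with 0 in each of 5 fits (without chow wild-type 2, chow knockout 2 or 4, HFD wild-type 2 or HFD knockout 2). Slc3a2, Noct and Sav1 rose more on chow, at 1.28, 1.39 and 0.65 against 0.35, 0.24 and 0.02 on HFD. Insig1 changed by -0.04 on chow and 0.87 on HFD. Socs2, a feedback inhibitor of growth hormone signalling, stood at 2.76, 3.42, 2.98 and 5.11 CPM in chow wild-type and 8.01, 9.3 and 7.33 CPM in chow knockout, and at 3.8, 4.01, 3.71, 3.04 and 3.5 CPM in wild-type and 3.07, 2.66, 3.13, 2.7 and 3.19 CPM in knockout libraries on HFD. It was higher in the knockout on chow and mostly lower on HFD, at 1.20 and -0.29, so its averaged rise of 0.46 ± 0.11 describes neither diet, and it was 1 of 13 called genes whose direction differed between the diets. Its averaged call was lost without any 1 of 14 of the 17 libraries, with adjusted p up to 0.117.

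**Figure D5:**
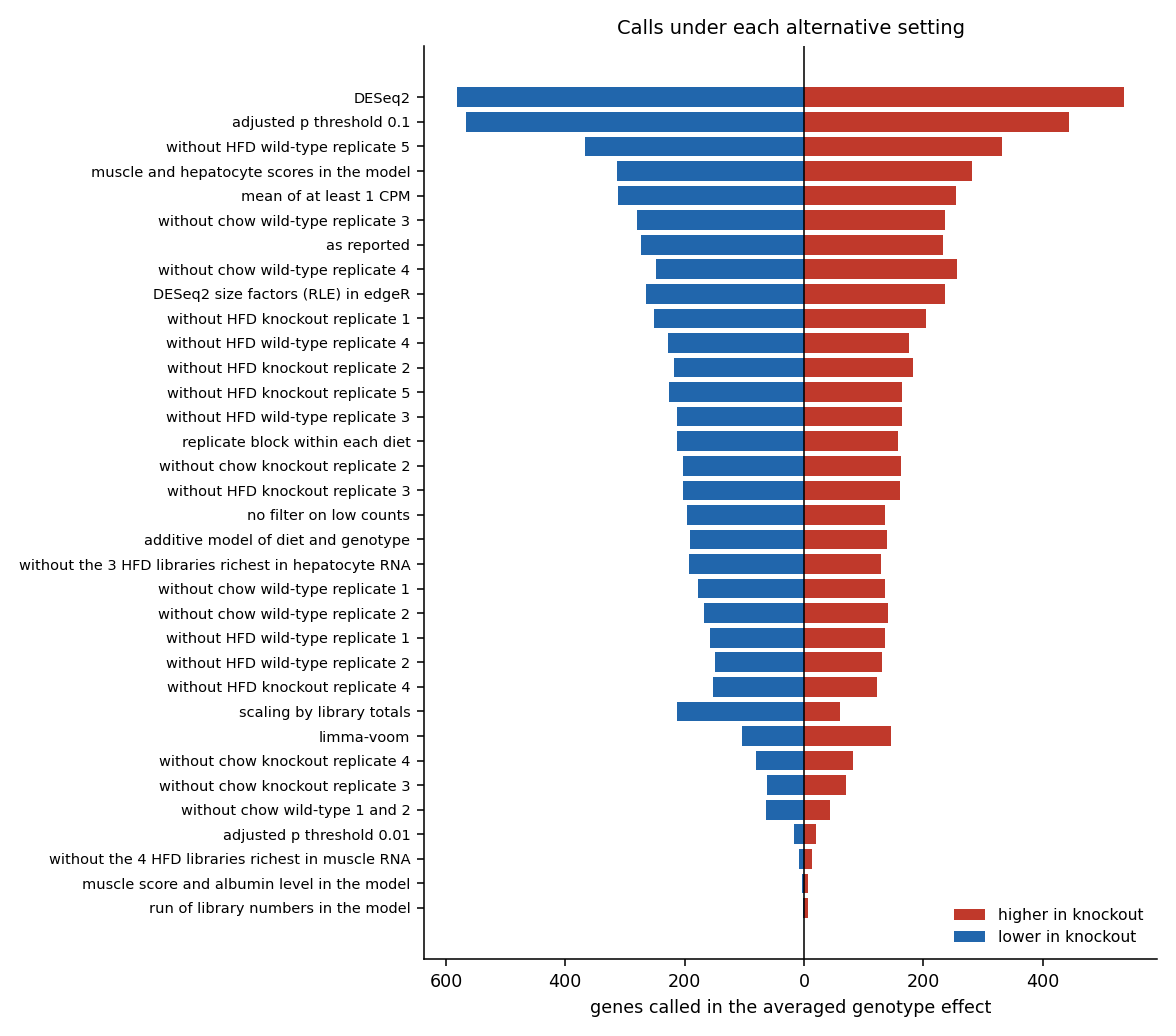
Number of genes called in the averaged genotype effect (x axis) under each alternative setting (y axis), red for genes higher and blue for genes lower in the knockout. As reported there are 506, and the longest bar is that of DESeq2 at 1117. The shortest is that of the library-number run as a model term, where the HFD difference rests on knockout 1 alone.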

How the data were processed

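RNA of brown adipose tissue from 17 libraries was sequenced as poly(A) libraries with a TruSeq RNA v2 kit, per the labels' protocols. The deposited table holds whole-number counts for 55414 genes in 17 columns, 1 per library. Per the submitters' processing notes the build was GRCm39 and the tools included STAR 2.7.8a, FastQC, DESeq and RSEM 1.3.0, with no roles given, so the counts the authors deposited may be rounded RSEM estimates. Annotation, strand handling and filters are not stated there, so overlapping and antisense genes cannot be told apart and near-identical copies may share reads.

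Counts were analysed with R 4.3.3 and edgeR 4.0.16: TMM scaling, filterByExpr (17717 genes kept), 1 coefficient per group and a quasi-likelihood F test of the equally weighted mean of both diets' genotype differences, with Benjamini-Hochberg adjustment over all genes tested and a threshold of 0.05. Levels are CPM on TMM-scaled library sizes, not per length, so they are compared between libraries and not between genes. SEs are the log2 change divided by the root of F. The method was tested on simulated counts, with 50 genes changed on both diets at each size. It called 6% of those changed 1.25-fold, 64% at 1.5-fold, 86% at 2-fold and 98% at 4-fold. False calls numbered 5 among 17373 genes. Small changes may therefore go uncalled. Alternatives used limma 3.58.1 and DESeq2 1.42.0, other scalings, filters and models, and libraries left out. No pair of libraries agreed within sampling noise.

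The contrast, gene lists and naming rule were chosen with earlier results of these data known. The rule names Dbi, a fixed set of brown fat genes, the 10 largest rises and 10 largest falls among called genes of at least 1 CPM with groups apart on both diets, and up to 3 called members of each list. List members beyond those 3, and genes described as picked after their values were seen, lie outside it, and 2 genes it took are not reported here. A planned 2 Mb window by position was replaced by the 10 nearest protein-coding genes on each side in RefSeq order, because the reference at hand is GRCm38.p6, from which promoters and gene order, but no positions of counted genes, were taken.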

Additional observations from a re-analysis of the deposited data

Results flagged for a closer look

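Of 303 groups of 4 or 5 libraries of the genes described, 23 held 1 library far from the rest of its group, where chance gives about 1 in 20. In chow wild-type, library 4 stood high for Scd1 (102300 CPM), Stip1 (59 CPM), Emcn (20.22 CPM), Egr3 (5.653 CPM) and Crtc2 (31.47 CPM). In the same group library 1 stood high for Sugct (11.78 CPM) and low for Ubqln1 (125.9 CPM), and library 3 low for Cry2 (20.65 CPM).

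In HFD wild-type, library 3 stood high for Sav1 (48.63 CPM) and low for Elovl5 (51.39 CPM), Adrm1 (49.26 CPM) and Psmd11 (64.68 CPM). Library 1 of that group, rich in muscle RNA, stood high for Zfp36 (44.72 CPM) and Fos (21.01 CPM), library 4 for Psma7 (31.07 CPM) and library 5 for Zfp516 (21.12 CPM).

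In HFD knockout, library 4 stood high for Dbi (165 CPM), library 3 for Insig1 (412.7 CPM) and Ccn1 (17.54 CPM), library 5 for Nr4a3 (15.54 CPM) and Egr1 (32.44 CPM) and library 1 for Cd36 (1499 CPM). Library 1 stood low for Psmd11 (75.43 CPM).

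The genotype effect differed between the diets by the interaction test for 7 genes. The HFD minus chow difference in log2 change was 0.94 for Dbi, 0.91 for Insig1, -0.93 for Slc3a2, -1.15 for Noct, -0.62 for Sav1, -1.50 for Socs2 and -0.63 for Cmtm6.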

How the results depend on the processing

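The alternatives reuse libraries on which the 506 genes were chosen, so a kept direction is a description. All 506 genes kept their direction under each alternative that tested them, but the number called moved. It was 272 (60 higher) under scaling by library totals, 331 (135 higher) with no filter, 1117 (536 higher, 581 lower) with DESeq2, 250 (146 higher, 104 lower) with limma-voom and 330 (139 higher) in an additive model. With the library-number run as a model term it was 7 (6 higher, 1 lower). It was 23 (14 and 9) without the 4 HFD libraries richest in muscle RNA, 322 (129 higher) without the 3 richest in hepatocyte RNA, and 107 (43 and 64) without chow wild-type 1 and 2. With the sums of the muscle and hepatocyte lists in the model it was 595 (281 higher and 314 lower, 455 of the 595 shared with the 506), and with the muscle sum and albumin, an alternative added after seeing the data, it was 10 (7 and 3). At a threshold of 0.01 it was 38 (21 and 17), and at 0.1 it was 1011 (445 and 566). Without single libraries it ran from 133 (71 higher, 62 lower, without chow knockout 3) to 699 (332 higher, 367 lower, without HFD wild-type 5). It was also off by over 1.5 times without chow wild-type 1 (313) or 2 (308), chow knockout 4 (163), HFD wild-type 1 (293) or 2 (280) and HFD knockout 4 (276). Higher genes made up 22.1% of calls under library totals and 58.4% with limma-voom, against 46.1% as reported.

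Of 66 called genes the text names by the rule, 30 stayed called without each library in turn, and 5 under all 31 fits. The interaction, called for 16 genes, gave 63 under library totals, 25 with a filter at 1 CPM, 196 with DESeq2, 10 with limma-voom and 1 without chow wild-type 1 and 2. It gave 0 with the replicate block, the run, either pair of tissue scores or no muscle-rich HFD libraries, and 0 to 33 without single libraries. The HFD effect fitted alone called 17 genes against 95. The causes were not tested. A replicate block within each diet called 371 genes, 294 of them shared. Same-numbered libraries did not deviate together (8 correlations from -0.72 to 0.21, 2 over 0.1, and 0 of the knockout libraries correlated best with their own number). HFD wild-type 1 and HFD knockout 2, both rich in muscle RNA, had a correlation of 0.76. Since tissue content can move these correlations, they cannot settle whether the numbers pair the libraries. Genes under about 1 CPM are limited by counting.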
